A study of Mus musculus with 10 samples.

Results

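A set of 9 genes that define B cells, or that B cells share with dendritic cells, was followed through a comparison by poly(A) RNA-seq of dendritic cells from mice, which take up antigen and show it to T cells. The genes are Cd79a, Cd79b, Ms4a1, Cr2, Fcer2a, Ebf1, Pax5, Blk and Cd22, taken by symbol from the count table. All 9 are among its 19178 genes, and all 9 are among the 18248 that passed the filter on low counts. The 5 Ptbp1-deficient libraries and the 5 wild-type (WT) libraries came from dendritic cells of mice aged 8 to 10 weeks, and both genotypes were sequenced as paired 150 bp reads. The labels give neither the allele or promoter used to remove Ptbp1, nor the organ, the sorting scheme or the sex, nor whether each library is its own mouse. The p-values below therefore measure the spread between these libraries, which may be technical.

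B cells sense antigen with a surface immunoglobulin that cannot signal by itself. Its signal passes through the paired chains Cd79a and Cd79b to Src-family kinases such as Blk, is raised by the complement receptor Cr2 and is damped by the inhibitory lectin Cd22. The transcription factors Ebf1 and Pax5 set up and hold this programme. As background, Cd79a, Pax5 and Ebf1 mark the B lineage among white blood cells. Cr2 and Fcer2a are typical of mature B cells and are also carried by follicular stromal cells. Blk and Cd22 have also been found in dendritic cells, Blk mainly in plasmacytoid ones.

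Libraries held 61759378 to 92697815 gene counts for Ptbp1-deficient cells and 50516163 to 66153758 for WT cells. Ptbp1 itself ran from 73.2 to 75.7 CPM (counts scaled to a common library size with TMM factors) in deficient libraries, against 259 to 312 CPM in WT libraries. The 14 dendritic cell identity genes, among them Itgax, Flt3 and the MHC class II chains, summed to 42487 to 46352 CPM in deficient and 35857 to 43716 CPM in WT libraries. WT replicates 1 and 5 stood apart from the other WT libraries. Their dendritic cell identity sums were the lowest (35857 and 36322 CPM), and their 12 measured macrophage markers summed to 2439 and 3562 CPM, against 1218 to 1268 CPM in WT replicates 2, 3 and 4; the deficient libraries ran from 373 to 1030.0 CPM. Fold changes and calls of the 9 genes are therefore given with and without them. Of the 14 identity genes 6 were higher, led by Xcr1 (1.68 on the log2 scale, adjusted p = 7.83e-07, edgeR), and 2 lower, led by Sirpa (-0.59, adjusted p = 2.03e-05).

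Of the 9 genes 7 were lower in Ptbp1-deficient cells and 0 were higher, at an adjusted p under 0.05 in edgeR's quasi-likelihood test (Benjamini-Hochberg over every gene in the fit). At an unadjusted p under 0.05 the counts were also 7 lower and 0 higher, DESeq2 called 7 and 0, and limma-voom with quality weights 5 and 0. Among all genes tested 45.0% were called, 23.1% lower and 21.9% higher, so calls were common in this comparison. These shares are also the background for the counts in every gene list below. The median log2 fold change was -1.77 over the 9 genes and -0.03 over all genes. Without WT replicates 1 and 5 the calls were 5 lower (Cd79a, Cd79b, Blk, Cr2 and Fcer2a) and 1 higher (Ms4a1), the median was -0.40, and 44.0% of all genes were called, 22.3% lower and 21.7% higher. The genes were chosen with earlier results of these data known. In bulk RNA, fewer cells of a type and less RNA per cell cannot be told apart.

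**Figure D1:**
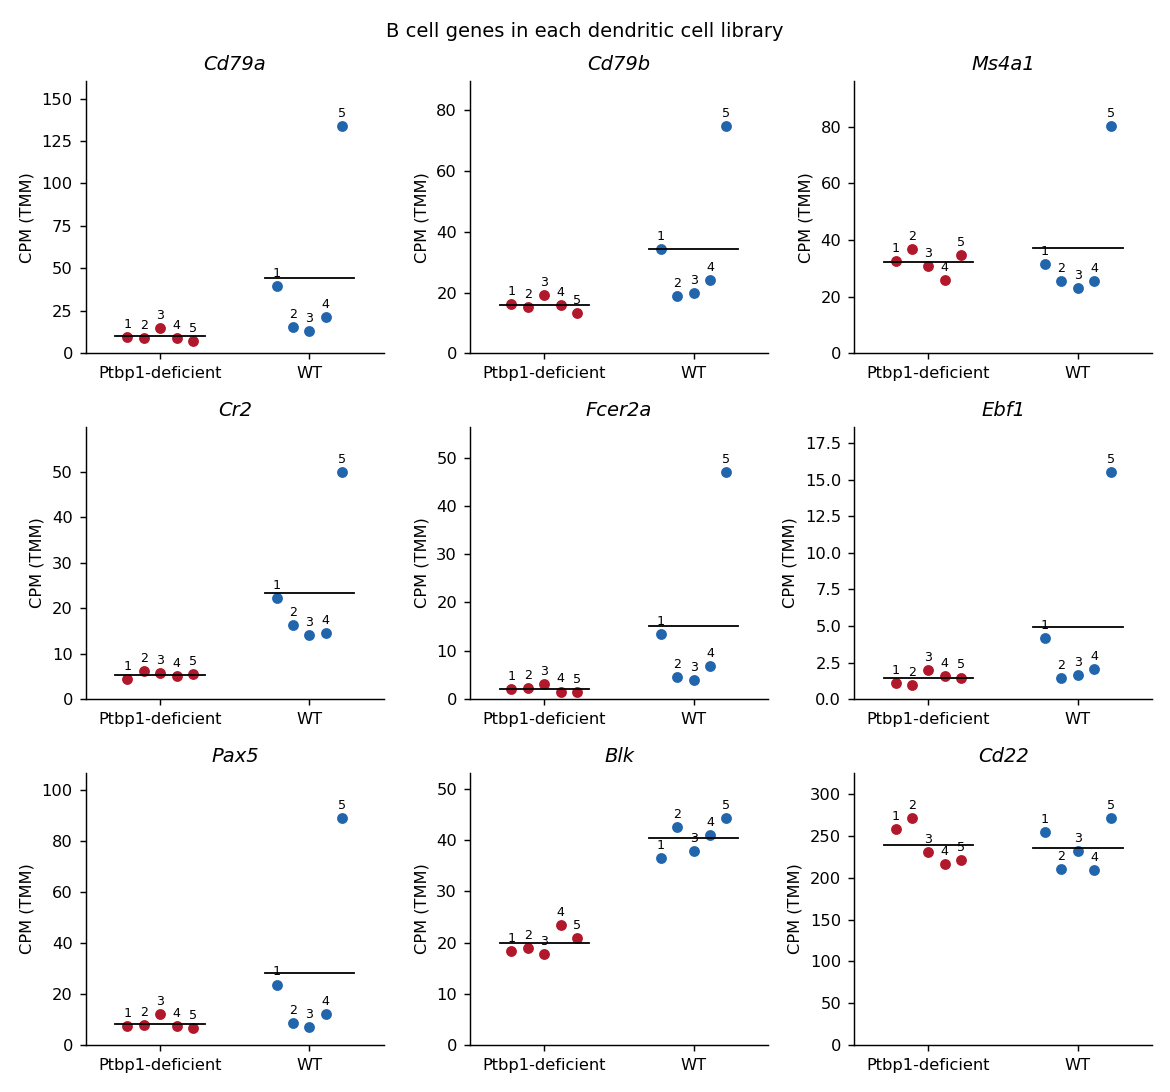
TMM-scaled CPM (linear axis from 0) of the 9 genes in each library, one panel per gene, with Ptbp1-deficient libraries on the left and WT libraries on the right, replicate numbers beside the points and a bar at each mean. WT replicate 5 lies far above the other WT libraries in 7 panels, as for Cd79a at 134 CPM, while the Blk and Cd22 panels show no such point.

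Promoter windows show the start-site sequence of genes with unlike behaviour below: Cd79a and Pax5, which moved together from library to library, and Cd22, which followed them less closely. The windows run from 250 bases before to 50 bases after the RefSeq start site (GRCm38.p6), and 6 of the 9 genes have an entry. They lie at chr7:24897247-24897546 on the plus strand for Cd79a, chr4:44710645-44710944 on the minus strand for Pax5 and chr7:30878979-30879278 on the minus strand for Cd22. Capitals mark CANNTG (the E box bound by E proteins) or CCCNNGGG (the core of the EBF palindrome), both searched on both strands.
Cd79a: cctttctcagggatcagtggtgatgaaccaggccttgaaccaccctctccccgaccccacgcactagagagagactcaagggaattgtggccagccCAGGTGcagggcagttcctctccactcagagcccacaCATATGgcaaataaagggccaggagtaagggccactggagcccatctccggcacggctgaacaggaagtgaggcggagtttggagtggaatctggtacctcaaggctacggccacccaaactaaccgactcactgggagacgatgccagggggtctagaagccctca
Pax5: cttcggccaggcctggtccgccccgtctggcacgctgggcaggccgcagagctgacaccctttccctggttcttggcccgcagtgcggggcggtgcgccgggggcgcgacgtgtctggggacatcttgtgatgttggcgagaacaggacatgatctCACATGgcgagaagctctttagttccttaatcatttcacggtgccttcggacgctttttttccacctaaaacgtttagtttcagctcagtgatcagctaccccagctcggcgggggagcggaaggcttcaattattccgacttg
Cd22: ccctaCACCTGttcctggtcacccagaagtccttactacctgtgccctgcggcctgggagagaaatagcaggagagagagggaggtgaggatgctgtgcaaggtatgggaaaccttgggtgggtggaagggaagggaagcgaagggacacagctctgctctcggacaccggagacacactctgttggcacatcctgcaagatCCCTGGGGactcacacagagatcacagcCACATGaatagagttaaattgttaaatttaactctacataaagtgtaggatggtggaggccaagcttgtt
E boxes stand in 72.3% of 32851 promoter windows of the same length, and these windows hold 2 (Cd79a), 1 (Pax5) and 2 (Cd22). CCCNNGGG stands in 13.7% of windows, and of these sequences the Cd22 window holds it, 48 bases before the start site and clear of its E boxes. ATGCAAAT (the octamer) and GAGGAAG (a longer string that holds the ETS core GGAA) were searched as well. These strings are in 1.74% and 13.6% of windows, and match none of the windows of the 6 genes. The core GGAA alone was not searched, and the Cd79a window holds it. A match is a description of letters and says nothing of binding. Only these exact strings were searched, so a window without a match can still hold a site of the same factor in other letters.

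The receptor signalling chains were lower in Ptbp1-deficient cells, and by less without WT replicates 1 and 5. Cd79a (ENSMUSG00000003379, chromosome 7, 24897381 to 24902197, plus strand, GRCm38) had 9.45, 8.87, 15.1, 9.01 and 7.49 CPM in deficient replicates 1 to 5, against 39.4, 15.5, 13.1, 21.4 and 134 CPM in WT replicates 1 to 5. Of the deficient libraries 4 lay below every WT library, and deficient replicate 3 overlapped the lower WT values. The log2 fold change was -2.16 (SE 0.59, adjusted p = 0.0106, edgeR), and without WT replicates 1 and 5 it was -0.74 (SE 0.21, adjusted p = 0.0149), or 60.0% of the WT level. Without WT replicate 5 alone it was -1.16 (adjusted p = 0.00689). Cd79b (ENSMUSG00000040592, chromosome 11, 106311341 to 106314762, minus strand), its partner chain, had 16.1, 15.4, 19.1, 15.8 and 13.2 CPM in deficient libraries, against 34.3, 18.8, 20.02, 24.02 and 74.8 CPM in WT libraries. Here too 4 deficient libraries were below every WT library. Its log2 fold change was -1.11 (SE 0.34, adjusted p = 0.0183, edgeR), and -0.40 (SE 0.11, adjusted p = 0.0129) without those WT libraries. Without Ptbp1-deficient replicates 1 and 2, the deficient libraries with the least of the macrophage gene Cd163 (2.60 and 1.96 CPM), neither chain passed (adjusted p = 0.0602 for Cd79a and 0.0755 for Cd79b). In the authors' deposited FPKM values, which are scaled to gene length, Cd79a averaged 6.20 ± 1.78 FPKM in deficient and 29.4 ± 33.3 FPKM in WT libraries (SD, n = 5 each).

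Cr2, which encodes the complement receptor CD21 (in the mouse also CD35), and Fcer2a, the low-affinity IgE receptor CD23, were lower in every deficient library than in any WT library. The groups did not overlap for 3 of the 9 genes, these and Blk, each with the deficient group below. Of all genes tested 33.4% had groups that did not overlap, 16.2% with the deficient group below and 17.2% with it above. Cr2 (ENSMUSG00000026616, chromosome 1, 195136811 to 195176716, minus strand) had 4.47, 6.08, 5.84, 5.01 and 5.51 CPM in deficient libraries, against 22.3, 16.2, 14.2, 14.6 and 49.97 CPM in WT libraries. The deficient values lay within 1 narrow band, and even the lowest WT value exceeded the highest of them by more than the whole deficient range. The log2 fold change was -2.12 (SE 0.33, adjusted p = 2.97e-04, edgeR), and without WT replicates 1 and 5 it was -1.48 (SE 0.10, adjusted p = 1.36e-06), so Cr2 stood at 35.9% of the level in the other 3 WT libraries. Fcer2a (ENSMUSG00000005540, chromosome 8, 3681737 to 3694175, minus strand) had 2.09, 2.33, 3.12, 1.57 and 1.39 CPM in deficient libraries, against 13.4, 4.61, 3.94, 6.94 and 46.96 CPM in WT libraries. The WT group spread over an order of magnitude, and the deficient group stayed below its lowest library. Its log2 fold change was -2.86 (SE 0.65, adjusted p = 0.00391, edgeR), and -1.30 (SE 0.26, adjusted p = 0.00171) without the 2 WT libraries, or -1.79 (adjusted p = 0.00127) without WT replicate 5 alone. Markers of the follicular stromal cells that also carry these receptors were low: 2 of 13, Clu and Sparc, are among the genes of the count table, and their summed level was 0.279 to 1.46 CPM in deficient and 2.45 to 4.31 CPM in WT libraries. Clu was called lower (0.468 ± 0.368 CPM in deficient and 2.99 ± 0.855 CPM in WT libraries, adjusted p = 9.00e-04, edgeR). Sparc was not called and had the opposite sign (0.234 ± 0.133 CPM in deficient and 0.179 ± 0.0750 CPM in WT libraries, log2 fold change 0.39, adjusted p = 0.521, edgeR). The part of stromal RNA in the result was not tested.

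Ms4a1, which encodes CD20, the target of therapeutic antibodies against B cells, did not follow the receptor chains. Ms4a1 (ENSMUSG00000024673, chromosome 19, 11249675 to 11266241, minus strand) had 32.4, 36.7, 30.9, 25.8 and 34.7 CPM in deficient libraries, against 31.5, 25.4, 22.99, 25.5 and 80.1 CPM in WT libraries. Of the WT libraries 4 lay below the deficient median, and WT replicate 5 was far above everything else. With all libraries the log2 fold change was -0.21 (SE 0.31, adjusted p = 0.615, edgeR; 95% interval -0.88 to 0.47). Without WT replicate 5 its direction turned (0.29, adjusted p = 0.0472), and without WT replicates 1 and 5 Ms4a1 was called higher in deficient cells (0.38, SE 0.099, adjusted p = 0.00892), with all 5 deficient libraries above the 3 WT libraries.

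The transcription factors of the B lineage were called lower with all libraries, and not called without WT replicates 1 and 5. Pax5 (ENSMUSG00000014030, chromosome 4, 44524757 to 44710487, minus strand), which holds B cells in their lineage, had 7.43, 7.90, 11.9, 7.22 and 6.72 CPM in deficient libraries, against 23.7, 8.43, 6.91, 12.2 and 88.8 CPM in WT libraries. WT replicates 2 and 3 lay within the range of the deficient values, and WT replicate 4 just above it. The log2 fold change was -1.77 (SE 0.63, adjusted p = 0.0374, edgeR) with all libraries. It was -0.16 (SE 0.21, adjusted p = 0.583, edgeR) without WT replicates 1 and 5. Ebf1 (ENSMUSG00000057098, chromosome 11, 44617317 to 45008091, plus strand), which acts upstream of Pax5 in early B cells, was the scarcest of the 9, with 60 counts in its lowest library. It had 1.12, 0.939, 2.01, 1.56 and 1.47 CPM in deficient libraries, against 4.17, 1.45, 1.63, 2.03 and 15.5 CPM in WT libraries. The log2 fold change of Ebf1 was -1.80 (SE 0.62, adjusted p = 0.0327, edgeR), and -0.26 (SE 0.24, adjusted p = 0.418) without them. Leaving out WT replicate 5 alone ended both calls, at log2 fold changes of -0.64 for Pax5 (adjusted p = 0.113) and -0.71 for Ebf1 (adjusted p = 0.0879). Leaving out deficient replicate 1, 2, 4 or 5 also ended both calls with little change in size, at -1.76 to -1.71 for Pax5 and -1.84 to -1.69 for Ebf1. Leaving out WT replicate 1 ended the call of Pax5 (-1.81, adjusted p = 0.0532). Pax5 shares exonic bases with the antisense gene Gm12462 and with 5730488B01Rik on the other strand, and no source used here says whether counting used strand, so their reads cannot be told apart.

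**Figure D2:**
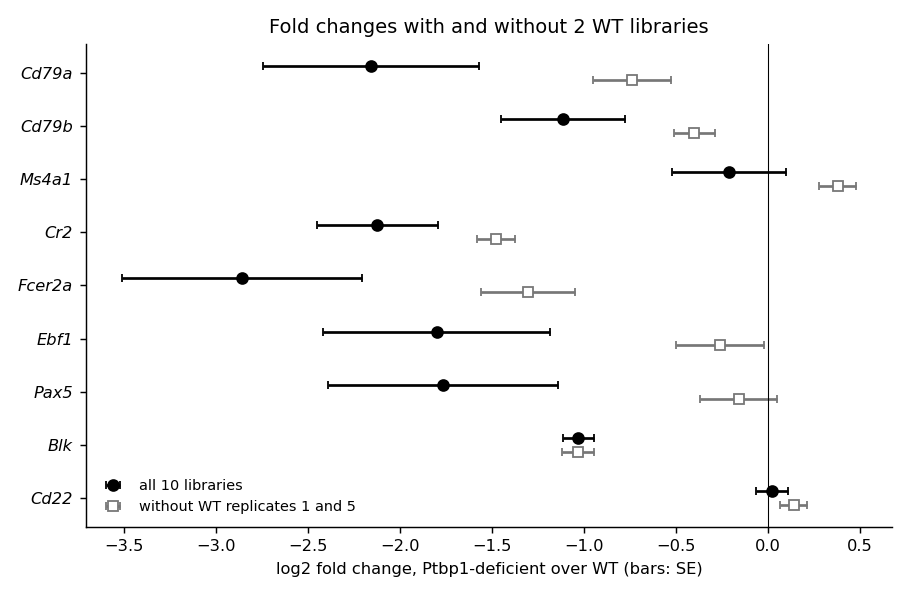
Log2 fold change of each gene, Ptbp1-deficient over WT, with its SE, from edgeR with all 10 libraries (filled circles) and without WT replicates 1 and 5 (open squares). The Blk symbols coincide at -1.03, those of Pax5 stand at -1.77 and -0.16, and those of Ms4a1 lie on either side of 0.

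Blk, the Src-family kinase that acts beneath the B cell receptor, had the smallest SE of the 9 fold changes. Blk (ENSMUSG00000014453, chromosome 14, 63372836 to 63417037, minus strand) had 18.3, 18.8, 17.7, 23.4 and 20.9 CPM in deficient libraries, against 36.5, 42.6, 37.9, 41.03 and 44.3 CPM in WT libraries. The groups were far apart, and neither WT replicate 1 nor 5 left the WT group. The log2 fold change was -1.03 (SE 0.083, adjusted p = 2.74e-06, edgeR; 95% interval -1.21 to -0.85), which is 49.0% of the WT level. Without WT replicates 1 and 5 it was again -1.03 (SE 0.086, adjusted p = 4.25e-06). In the authors' deposited FPKM values Blk averaged 8.62 ± 1.12 FPKM in deficient and 19.5 ± 1.36 FPKM in WT libraries (SD, n = 5 each). Plasmacytoid dendritic cell genes, the cells in which Blk is best known outside B cells, were also lower in 9 of 15 cases and higher in 1 (Pacsin1), against 7 lower and 4 higher without WT replicates 1 and 5. Siglech, their surface lectin, averaged 5.12 ± 1.24 CPM in deficient and 30.2 ± 25.3 CPM in WT libraries (log2 fold change -2.56, SE 0.44, adjusted p = 6.14e-04, edgeR), and its log2 fold change was -1.90 without WT replicate 5 and -1.65 without WT replicates 1 and 5. It had 74.4 CPM in WT replicate 5, a library in which Blk was 1.09 times the mean of WT replicates 2, 3 and 4. The summed level of the 15 genes was 555 to 634 CPM in deficient and 623 to 1063 CPM in WT libraries, and their part in the Blk result was not tested.

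Cd22, the inhibitory sialic acid-binding receptor, was the most abundant of the 9 and was not called. Cd22 (ENSMUSG00000030577, chromosome 7, 30865402 to 30880342, minus strand) had 258, 271, 230.5, 216 and 221 CPM in deficient libraries, against 255, 210.1, 232, 209 and 271 CPM in WT libraries. The groups covered nearly the same range. The log2 fold change was 0.03 (SE 0.087, adjusted p = 0.840, edgeR), with a 95% interval of 89.2% to 116% of the WT level, and 0.14 (SE 0.075, adjusted p = 0.149) without WT replicates 1 and 5. Its sign turned under 8 alternatives, and it passed under 0 of the 23. Cd22 overlaps exonic bases of the antisense gene Gm29439, whose reads cannot be told apart from its own.

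Relative to the mean of WT replicates 2, 3 and 4, WT replicate 5 held 9.67 times the Pax5, 9.10 times the Fcer2a, 9.09 times the Ebf1 and 8.02 times the Cd79a. Cd79b (3.57-fold), Cr2 (3.33-fold) and Ms4a1 (3.25-fold) formed a middle group, and Cd22 (1.25-fold) and Blk (1.09-fold) barely differed from those libraries. WT replicate 1 gave nearly the same order at a smaller scale, with 2.59-fold for Fcer2a, 2.58-fold for Pax5, 2.44-fold for Ebf1, 2.37-fold for Cd79a and 1.63-fold for Cd79b. It had 1.49-fold for Cr2, 1.28-fold for Ms4a1, 1.17-fold for Cd22 and 0.902-fold for Blk. These libraries are single, so the folds are values with no test. Over the 5 WT libraries the coefficient of variation was 114% to 124% for Cd79a, Fcer2a, Ebf1 and Pax5, 64.7% to 68.0% for Cr2, Ms4a1 and Cd79b, 11.7% for Cd22 and 8.01% for Blk. Over the deficient libraries it was 10.0% to 32.7% for the 9 genes.

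**Figure D3:**
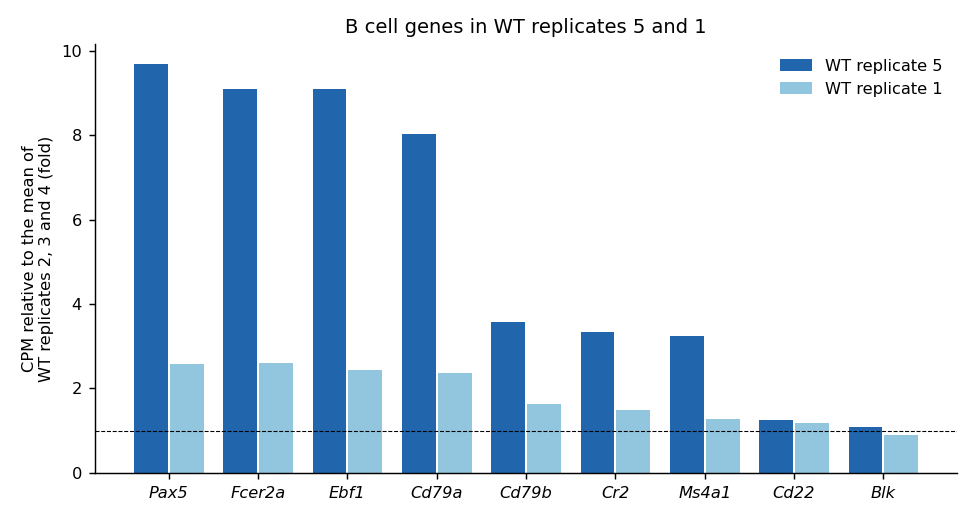
CPM of each gene in WT replicate 5 (dark bars) and WT replicate 1 (light bars) as a fold of the mean of WT replicates 2, 3 and 4, on an axis from 0 with a dashed line at 1. Pax5, Fcer2a, Ebf1 and Cd79a stand at 8.02 to 9.67-fold in WT replicate 5, against 1.25-fold for Cd22 and 1.09-fold for Blk.

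Levels can be set side by side once divided by exon length. Per kilobase of merged exons, Cd22 averaged 47.5 ± 4.76 CPM in deficient libraries (SD, n = 5), Cd79b 11.1 ± 1.49, Blk 7.35 ± 0.861, Cd79a 6.86 ± 2.04 and Ms4a1 5.19 ± 0.672. Pax5 followed with 0.931 ± 0.237, Fcer2a with 0.679 ± 0.222, Cr2 with 0.664 ± 0.080 and Ebf1 with 0.145 ± 0.043 CPM per kilobase. Blk and Cd79a, Cd79a and Ms4a1, and Fcer2a and Cr2 differed by less than the larger SD of each pair. In WT libraries the medians per kilobase were 45.9 CPM for Cd22, 16.8 for Cd79b, 15.2 for Blk, 14.7 for Cd79a, 4.13 for Ms4a1, 2.24 for Fcer2a, 2.00 for Cr2, 1.38 for Pax5 and 0.208 for Ebf1. Merged exons include every annotated isoform, which lowers these values for genes with rarely used exons.

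To compare the genes inside each library, the counts of each were divided by those of Cd79a in the same library. Pax5 stood at 0.786 to 0.897 counts per Cd79a count in deficient libraries, against 0.528 to 0.665 in WT libraries, although Cd79a itself covered a far wider range in WT. Fcer2a stood at 0.174 to 0.263 in deficient libraries, against 0.297 to 0.352 in WT libraries. Neither pair of ranges overlapped. Ms4a1 stood at 2.04 to 4.63 in deficient libraries, against 0.600 to 1.76 in WT libraries, also without overlap. Cd22 stood at 15.2 to 30.6 in deficient libraries, against 2.03 to 17.7 in WT libraries, and Cd79b at 1.26 to 1.76 against 0.560 to 1.53.

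On the log2 scale these ratios differed, deficient minus WT, by 1.57 for Ms4a1, 0.52 for Pax5 and -0.63 for Fcer2a, each with an unadjusted p of 0.00794 in an exact two-sided permutation test over all assignments of the libraries, the smallest that this design can give. Adjusted over the 8 ratios, p was 0.0212 for those (exact permutation test). Cd22 (1.64) and Cd79b (0.70) also passed, at an adjusted p of 0.0254 (exact permutation test). Ebf1 (0.41, adjusted p = 0.0847), Blk (0.58, adjusted p = 0.452) and Cr2 (-0.34, adjusted p = 0.417) did not pass in that exact permutation test. All 8 ratios share Cd79a as denominator, itself called lower (log2 fold change -2.16), so they are not independent results. With all libraries Cd22 (0.03) and Ms4a1 (-0.21) were not called themselves, so their higher ratios largely restate the lower Cd79a. The calls of Cd79b and Cd22 ended when deficient replicate 1, 2, 4 or 5 was left out (adjusted p of 0.0529 without replicate 2 and 0.0635 without each of the others, exact permutation test), and Ebf1 passed without deficient replicate 2 (0.51, adjusted p = 0.0317). Without WT replicates 1 and 5, 0 of 8 passed after adjustment in the exact permutation test (adjusted p of 0.0952 or more). The exact tests then had 56 assignments and 0.0179 as the smallest possible p; unadjusted, 3 ratios were under 0.05 (Pax5, Ms4a1 and Fcer2a), and the sign for Blk turned (-0.29).

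**Figure D4:**
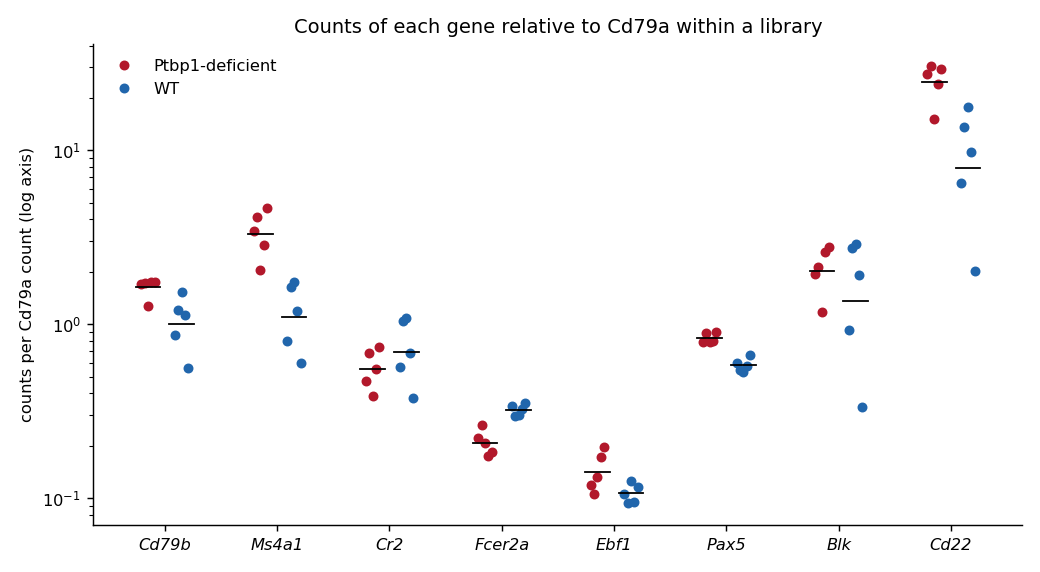
Counts of each gene per Cd79a count in the same library (log axis), with Ptbp1-deficient libraries on the left of each pair and WT libraries on the right, and bars at geometric means. The WT points of Pax5 and Fcer2a keep to narrow bands (0.528 to 0.665 for Pax5), while those of Cd22 run from 2.03 to 17.7.

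Genes whose library-to-library deviations within a genotype were most like those of a member were taken over the 10 libraries by Pearson r of log2 CPM. For Cd79a these were Pax5 (r = 0.997), Pou2af1 (r = 0.994), which encodes a B cell coactivator of octamer factors, and Cd79b (r = 0.991). Without WT replicates 1 and 5 the values over 8 libraries were 0.973, 0.977 and 0.915. For Pax5 they included Cd79a and Pou2af1 (r = 0.994), and for Fcer2a they were Igkv10-96 (r = 0.990), Pax5 (r = 0.989) and Cd79a (r = 0.988). Cd79b was nearest to Lynx1 (r = 0.992), Pou2af1 (r = 0.992) and Cd79a, and genes near Ebf1 included Mzb1 (r = 0.992) and Capg (r = 0.988).

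The other members kept different company. Cd22 was nearest to Slc15a4 (r = 0.986), Rnf122 (r = 0.976) and Cebpa (r = 0.958), with 0.974, 0.969 and 0.945 without WT replicates 1 and 5. Blk was nearest to Cbwd1 (r = 0.939), Sbds (r = 0.930) and Nlrc5 (r = 0.923), and the values without those libraries were 0.922, 0.912 and 0.954. Ms4a1 was nearest to S1pr4 (r = 0.984), Crocc (r = 0.977) and Chil3 (r = 0.975), and for Chil3 the value was 0.570 without WT replicates 1 and 5. Cr2 was nearest to Rpgrip1 (r = 0.977), Gm43966 (r = 0.975) and Tnfrsf13c (r = 0.970), which stood at 0.534, 0.557 and 0.503 without them. Among members, r between Cd79a and Blk was 0.103, and between Cd79a and Ms4a1 it was 0.885 with all libraries and -0.06 without those 2. With all libraries Cd22 had r of 0.605 with Cd79a and 0.618 with Pax5. Without WT replicates 1 and 5 these values were -0.187 and -0.192. All of these r values come from the same libraries and carry no test, and Igkv10-96 belongs to a family of near-identical segments, so its counts are uncertain.

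Other genes of the B lineage fell on both sides of this divide. Of 19, 12 were called lower and 0 higher (14 and 0 at an unadjusted p under 0.05 in edgeR, 13 and 0 in DESeq2, 6 and 1 in voom), and their median log2 fold change was -1.04. With WT replicates 1 and 5 left out, 7 were lower and 4 higher, with a median of -0.35. Fcrl1, an Fc receptor-like protein of the B cell surface, averaged 29.5 ± 3.82 CPM in deficient and 85.4 ± 7.14 CPM in WT libraries (log2 fold change -1.54, SE 0.090, adjusted p = 3.50e-07, edgeR), and its log2 fold change was -1.50 without those libraries. Tnfrsf13b, the receptor TACI, averaged 41.3 ± 3.09 CPM in deficient and 58.9 ± 5.93 CPM in WT libraries (adjusted p = 1.64e-04, edgeR), and Siglecg, an inhibitory lectin related to Cd22, 230.1 ± 26.0 CPM in deficient and 324 ± 14.8 CPM in WT libraries (adjusted p = 1.95e-04, edgeR). The immunoglobulin heavy chain gene Ighm, singled out after its values were seen, averaged 374 ± 25.1 CPM in deficient and 478 ± 393 CPM in WT libraries. It was not called with all libraries (adjusted p = 0.482, edgeR), and it was higher in deficient cells without WT replicates 1 and 5 (log2 fold change 0.50, adjusted p = 3.01e-04).

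Genes that B cells share with dendritic cells moved both ways. Of 16 such genes 5 were higher and 5 lower, the median log2 fold change being -0.03. Without WT replicates 1 and 5 the counts were 5 higher and 8 lower. Among all genes tested 21.9% were higher and 23.1% lower, and without those libraries 21.7% and 22.3%. Fcgr2b, the inhibitory Fc receptor, averaged 32.2 ± 4.03 CPM in deficient and 78.2 ± 7.26 CPM in WT libraries (log2 fold change -1.28, SE 0.091, adjusted p = 1.17e-06, edgeR), and the tetraspanin gene Cd37 79.3 ± 7.45 CPM in deficient and 178 ± 33.9 CPM in WT libraries (adjusted p = 1.15e-05, edgeR). Irf8, a factor on which XCR1+ dendritic cells depend, averaged 1359 ± 229 CPM in deficient and 699.9 ± 88.1 CPM in WT libraries (adjusted p = 6.09e-05, edgeR). Btla, an inhibitory receptor, averaged 298 ± 27.5 CPM in deficient and 191 ± 21.6 CPM in WT libraries (adjusted p = 8.73e-05, edgeR).

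The kinases and adaptors that carry the receptor's signal onward, which dendritic cells use under other receptors, moved both ways as well. Of 18, 6 were higher and 6 lower, and without WT replicates 1 and 5, 7 were higher and 7 lower. The shares over all genes given above stand beside these counts too. Syk, the kinase that docks on Cd79a and Cd79b, averaged 347 ± 10.3 CPM in deficient and 541 ± 27.3 CPM in WT libraries (log2 fold change -0.64, SE 0.045, adjusted p = 1.07e-06, edgeR). Dapp1, an adaptor downstream of PI3 kinase, was also lower (log2 fold change -0.43, adjusted p = 1.02e-04, edgeR), and the phospholipase gene Plcg2 (0.38, adjusted p = 3.67e-05) and the adaptor gene Pik3ap1 (0.33, adjusted p = 1.31e-04) were higher. Among 12 other factors of B cell fate 7 were lower and 2 higher (Spi1 and Id2). Without WT replicates 1 and 5 the counts were the same, but the higher genes were Id2 and Bcl6. Bcl6 then had a log2 fold change of 0.19 (adjusted p = 0.00786, edgeR), and Spi1 was not called (adjusted p = 0.0921, edgeR). Id3, an inhibitor of E proteins, averaged 1.00 ± 0.362 CPM in deficient and 4.94 ± 2.02 CPM in WT libraries (log2 fold change -2.30, SE 0.31, adjusted p = 1.02e-04, edgeR), whereas Id2, its relative on which conventional dendritic cells depend, averaged 465 ± 28.7 CPM in deficient and 329 ± 36.7 CPM in WT libraries (0.50, adjusted p = 2.93e-04, edgeR). Mef2c (-0.52, adjusted p = 1.36e-04) and Myb (-1.18, adjusted p = 3.23e-04) were also lower in edgeR.

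Markers of neighbouring cell types were measured beside these genes. Of 7 plasma cell genes 4 were lower and 0 higher (5 and 0 at an unadjusted p under 0.05 in edgeR and also in DESeq2, 3 and 0 in voom), led by Prdm1 with 4.25 ± 0.519 CPM in deficient and 10.1 ± 2.41 CPM in WT libraries (adjusted p = 6.48e-05, edgeR). Of 12 macrophage markers 8 were lower and 0 higher (10 and 0 at an unadjusted p under 0.05 in edgeR, 9 and 0 in DESeq2, 7 and 0 in voom), among them Cd163 (log2 fold change -3.25, adjusted p = 0.00267, edgeR; -2.37 without WT replicate 5 and -1.82 without WT replicates 1 and 5). Of 11 T cell markers 0 were called by edgeR, 1 was under an unadjusted p of 0.05 and 0 were called by DESeq2, while voom called 7 higher; their summed level was 24.5 to 30.7 CPM in deficient and 7.67 to 81.0 CPM in WT libraries, with the highest in WT replicate 5, and 8 were higher without WT replicates 1 and 5. Without those libraries, 1 plasma cell gene was lower and 1 higher, and 5 macrophage markers were lower. The part of macrophage, plasma cell and T cell RNA in the values of the 9 genes was not tested.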

How the data were processed

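Poly(A) libraries from TRIzol-extracted RNA were read as paired 150 bp Illumina reads, per the labels' protocols. HISAT2, StringTie and DESeq2 are listed without versions, per the submitters' processing notes, which give GRCh38 as the build although the gene identifiers are those of mouse. No source used here names the counting tool or its strand setting. The authors deposited raw counts per gene, in which each gene has at least 2 counts in every library, and FPKM values, in which every value is at least 1.00; the FPKM table lists 5 of the 9 genes. Rows for reads outside genes, ambiguous or not unique took 25.9% to 30.6% of each library's counts and were left out.

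Symbols, exons and coordinates came from GENCODE M21 (GRCm38), which matched 19035 of 19178 identifiers, and promoter windows from RefSeq (GRCm38.p6). Counts were filtered with filterByExpr, scaled by TMM and tested with edgeR 4.0.16 (limma 3.58.1, R 4.3.3), genotype being the only term, with adjustment over 18248 genes and calls at an adjusted p under 0.05. The fit was checked on simulated data with 50 genes changed at each fold. It called 19 of them at 1.3-fold, 29 at 1.5-fold, 39 at 2-fold and 50 at 4-fold, with 1 false call in all. Small changes can therefore go uncalled. SEs are the log2 fold change over the root of the quasi-likelihood F. Ratios to Cd79a used exact permutation tests.

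Members, lists and alternatives were chosen with earlier results of these data known. Named were Ptbp1, the members, each member's 3 most similar genes and, in each other list, at most 4 called genes by smallest adjusted p. Ighm, Pacsin1, Sparc, Bank1, Tnfrsf13c, Fcrla, Spi1 and Bcl6 were named after their values were seen. Some genes that this rule names are not reported here. Alternatives were other scalings, DESeq2 1.42.0, limma-voom with quality weights, other filters, a replicate block, sva 3.50.0, log2 FPKM with pseudocounts of 1 and 0.1, a stricter threshold and left-out libraries.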

Additional observations from a re-analysis of the deposited data

Results flagged for a closer look

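Within a genotype, a library was singled out when its gap to the nearest other library exceeded 0.71 of the group's range, Dixon's 95% critical value for 5 values, at which chance marks about 1 group in 20. WT replicate 5 was so marked as the highest WT library for 7 of the 9 genes: Pax5 at 88.8 CPM, Cd79a at 134 CPM, Ms4a1 at 80.1 CPM, Cd79b at 74.8 CPM, Cr2 at 49.97 CPM, Fcer2a at 46.96 CPM and Ebf1 at 15.5 CPM. For Blk and Cd22 no library was marked. In all, 18 of 86 groups screened were marked. The 7 genes deviated together across the libraries, so their marks are not independent, and the rate of 1 in 20 assumes normally spread values. Among the other genes named, WT replicate 5 was the high outlier for Myb (25.0 CPM), Sdc1 (2.86 CPM), Irf4 (143 CPM), Spib (162 CPM), Siglech (74.4 CPM), Cd163 (184 CPM) and Thy1 (10.9 CPM).

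Ptbp1-deficient replicate 3 stood above the other deficient libraries for Cd79a (15.1 CPM) and Pax5 (11.9 CPM). Deficient replicate 5 was marked for Sdc1 (0.330 CPM) and deficient replicate 4, as the lowest, for Runx2 (43.0 CPM).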

How the results depend on the processing

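The calls of Blk, Cr2 and Fcer2a held in the same direction under every alternative that could be fitted (23 for Blk, 21 for Cr2 and Fcer2a, which the FPKM table does not list), with log2 fold changes of -1.17 to -0.97, -2.27 to -1.48 and -3.11 to -1.30. Cd79a and Cd79b each held in 20 of 23, Ebf1 in 11 and Pax5 in 10 of 21.

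Of 7 genes called, and called lower, 3 were left with the replicate number as a block. At an adjusted p under 0.01, 3 were left, and without Ptbp1-deficient replicates 1 and 2 also 3. With each FPKM pseudocount the called genes that the FPKM table lists, Cd79a, Cd79b and Blk, all kept their calls. Cr2, Fcer2a, Ebf1 and Pax5 are not in that table. Against 0 called higher, 1 was higher without WT replicates 1 and 5, and leaving out each library gave 0 to 1 higher and 5 to 7 lower. The labels do not say whether the replicate numbers pair the libraries. Same-numbered libraries deviated together with correlations of -0.10 to 0.11, and the largest correlation between differently numbered libraries was 0.198. These values cannot settle whether the libraries were paired.

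Ms4a1 turned positive with voom weights (0.23), a surrogate variable (0.0491) and without WT replicates 1 and 5 (0.38), and ran from -0.35 to 0.29 over single left-out libraries. Cd22 turned negative with upper-quartile scaling (-0.0191), in log2 FPKM with pseudocounts of 1 and 0.1 (-0.00262 in each) and without deficient replicates 1 and 2 (-0.0821), and ran from -0.0280 to 0.0826 over single left-out libraries.

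In exact permutation tests, the ratios to Cd79a that passed did not pass without WT replicates 1 and 5 (differences of 1.12 for Ms4a1, 0.35 for Cd79b, -0.57 for Fcer2a, 0.60 for Pax5 and 0.89 for Cd22), and that of Blk turned to -0.29; nor did they with sign-flips within same-numbered pairs as a replicate block (1.57, 0.70, -0.63, 0.52 and 1.64), an exact test that cannot go under p = 0.0625. Over single left-out libraries the differences ran from 0.49 to 0.85 for Cd79b, 0.29 to 0.51 for Ebf1 and 1.15 to 1.93 for Cd22; Cd79b and Cd22 each lost their call in 4 of these 10 and Ebf1 gained one in 1.

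Over all genes 8214 were called (7239 to 8368 without single libraries); 3998 rose, against 2419 and 2407 in log2 FPKM with pseudocounts of 1 and 0.1, where fewer genes are listed. The 12 calls among other B lineage genes became 7 with voom weights, 5 with the replicate block, 5 with each FPKM pseudocount, 4 at the stricter threshold and 4 without deficient replicates 1 and 2. Plasma cell calls (4) became 1 at the stricter threshold and 2 without WT replicates 1 and 5, plasmacytoid calls (10) 4 with each FPKM pseudocount, macrophage calls (8) 5 without WT replicates 1 and 5, and dendritic identity calls (8) 5 at the stricter threshold. T cell calls (0) became 7 with voom weights, 1 with the replicate block, 6 with a surrogate variable, 8 without WT replicates 1 and 5, and 0 to 8 without single libraries. The FPKM table lists 0 of the stromal markers, so it gives no value for them. It lists 16 of the 19 other B lineage genes and 10 of the 15 plasmacytoid genes. Where no gene or sample was removed, the cause was not tested.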

Other observations

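Beside Cr2 and Fcer2a, the mature B cell gene Bank1, whose product is an adaptor of the receptor pathway, had deficient libraries all below WT libraries, with 25.7 ± 2.44 CPM in deficient and 44.9 ± 20.5 CPM in WT libraries (log2 fold change -0.81, SE 0.23, adjusted p = 0.0121, edgeR). Tnfrsf13c, the BAFF receptor, and Fcrla behaved like Ms4a1: neither was called with all libraries (adjusted p = 0.508 for Tnfrsf13c and adjusted p = 0.506 for Fcrla, edgeR), and each was higher in deficient cells without WT replicates 1 and 5 (log2 fold change 0.52, adjusted p = 9.21e-04 for Tnfrsf13c and 0.37, adjusted p = 0.00876 for Fcrla). These genes were singled out after their values were seen.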
